A study of Mus musculus with 15 samples.

Results

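The genes examined were 10 regulators of the entry of beta cells into the cell cycle, out of 22028 protein-coding mouse genes: the CDK inhibitors Cdkn2a, Cdkn2b, Cdkn2c, Cdkn1a and Cdkn1b, the D-type cyclins Ccnd1, Ccnd2 and Ccnd3, and the kinases Cdk4 and Cdk6. They were chosen by name, with earlier results of these data known. For each gene the peaks of 2 histone marks were collected within 1000 bp of its annotated transcription start sites (its promoter) and over the gene body with 20 kb either side (its locus). H3K27Ac, acetylated lysine 27 of histone H3, is found at active promoters and enhancers, and H3K27Me3, the trimethylated form of the same residue, at chromatin repressed by Polycomb. Islets came from young adult male mice of the CBA strain that ate a regular diet (RD), a high-fat diet (HFD) or the high-fat diet with O304, a small molecule activator of AMPK, mixed into it (HFD-O304). Each of the 6 combinations of mark and diet had 2 replicate samples of pooled islets, whose alignments were merged before 1 peak list was called.

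The cyclins of the D type bind CDK4 or CDK6, and the active kinases phosphorylate the retinoblastoma protein, which frees E2F factors to drive the genes of DNA replication. The INK4 inhibitors, p16 and p15 of the Cdkn2a and Cdkn2b genes and p18 of Cdkn2c, bind CDK4 and CDK6 themselves, whereas p21 of Cdkn1a and p27 of Cdkn1b bind complexes of cyclin and CDK. In the mouse, Cdk4 and Ccnd2 are known to be needed for a normal mass of beta cells, and p16 builds up in islets with age, as Polycomb proteins are lost from Cdkn2a. That gene has a pair of start sites. The upstream one yields p19Arf, which acts on p53 through MDM2, and the downstream one yields p16Ink4a.

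The lists rested on 83773042 to 95218072 kept fragments for H3K27Ac and on 54166902 to 74870300 for H3K27Me3. Peak strength is given below as the ratio of the mean pileup over a peak to the uniform background of its list. This scales for the depth of the list but does not remove differences in its calling limit. The median ratio over all H3K27Me3 peaks was 3.17 under RD, 3.58 under HFD and 3.43 under HFD-O304. The 95% intervals are exact Poisson intervals for the estimated number of fragments in the peak and cover counting error only. With 1 merged list per mark and diet there was no replicate error, no difference between diets could be tested, and values of the diets are set side by side. Among H3K27Ac peaks the lowest ratio was 2.40 under RD, 2.26 under HFD and 2.37 under HFD-O304. Among H3K27Me3 peaks it was 2.74, 3.10 and 2.97 in the same order, so that a promoter without a peak may still carry the mark below these levels. Whole islets were used, in which the share of cells that carry a mark and its level per cell cannot be told apart. Of 6 beta cell markers, 5 had a promoter H3K27Ac peak under RD, 6 under HFD and 5 under HFD-O304, where Ins1 had none. Of 3 alpha cell markers 1 was acetylated in each diet, and of 2 delta cell markers 0. The glucagon gene of alpha cells and the somatostatin gene of delta cells had no promoter peak in any list. H3K27Ac was called at the promoters of 0 of 5 acinar markers, 0 of 3 endothelial, 0 of 3 macrophage and 0 of 3 mesenchymal markers in each diet, and at 1, 1 and 2 of 3 ductal markers in RD, HFD and HFD-O304.

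The start sites on which the results turn are printed as reference sequence, since both marks were found at Cdkn2a and Cdk6 and H3K27Ac alone at the Cdkn2b promoter next to Cdkn2a. Each line holds the 250 bases before a RefSeq start site (GRCm38.p6, 5′ to 3′ in the direction of transcription), with CpG dinucleotides in capitals. The windows lie at chr4:89294620-89294869 for the p19Arf start, chr4:89282193-89282442 for the p16Ink4a start and chr4:89311033-89311282 for Cdkn2b, all on the minus strand, and at chr5:3343643-3343892 on the plus strand for the second start of Cdk6.
Cdkn2a, p19Arf start: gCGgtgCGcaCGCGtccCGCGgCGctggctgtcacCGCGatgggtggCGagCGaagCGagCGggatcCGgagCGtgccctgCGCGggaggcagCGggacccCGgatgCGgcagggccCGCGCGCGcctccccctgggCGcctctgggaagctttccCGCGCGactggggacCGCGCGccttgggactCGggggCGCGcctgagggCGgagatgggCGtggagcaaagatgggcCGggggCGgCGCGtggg
Cdkn2a, p16Ink4a start: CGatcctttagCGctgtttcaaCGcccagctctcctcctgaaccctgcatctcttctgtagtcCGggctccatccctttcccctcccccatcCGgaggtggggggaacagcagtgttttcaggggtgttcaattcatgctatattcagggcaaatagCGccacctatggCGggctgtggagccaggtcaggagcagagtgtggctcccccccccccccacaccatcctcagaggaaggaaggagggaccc
Cdkn2b: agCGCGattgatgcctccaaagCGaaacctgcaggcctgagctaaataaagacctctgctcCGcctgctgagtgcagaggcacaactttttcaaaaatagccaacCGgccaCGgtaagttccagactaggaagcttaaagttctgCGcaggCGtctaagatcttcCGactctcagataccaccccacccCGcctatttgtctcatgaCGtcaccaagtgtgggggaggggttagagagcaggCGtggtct
Cdk6, second start: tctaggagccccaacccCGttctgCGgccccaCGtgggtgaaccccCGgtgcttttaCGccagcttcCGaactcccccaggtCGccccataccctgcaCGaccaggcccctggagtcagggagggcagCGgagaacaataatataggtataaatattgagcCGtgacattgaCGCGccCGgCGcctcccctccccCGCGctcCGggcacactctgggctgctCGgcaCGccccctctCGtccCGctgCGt
The p19Arf window held 40 CpG, the p16Ink4a window 7, the Cdkn2b window 12 and the Cdk6 window 22. RefSeq promoter windows of 300 bases, from 250 before a start to 50 after it, were found for 8 of the 10 genes (12 windows). Their median was 22.5 CpG, against 14 over 20150 windows of all genes. Motifs were searched on both strands. The SP1 box GGGCGG occurred in 9 of the 12 windows (47.8% of all windows), the E-box CACGTG in 3 (8.03%), and the cAMP element TGACGTC in 1, that of Cdkn2b (3.97%). The forkhead motif GTAAACA was found in 1 window, that of the first Ccnd3 start (2.96%), and TATAAA in 1, that of Cdk6 (12.1%). The E2F cores TTCGCGC (2.12% of all windows) and TTGGCGC (3.20%) were in none of the 12. Other forms of the E2F site were not searched, so these windows may still hold such sites.

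An H3K27Ac peak was present at 9 of 10 promoters under RD, 9 under HFD and 10 under HFD-O304, where 46.7%, 52.6% and 52% of all protein-coding genes had one. When only the 5′ end of each gene was taken as its start, 6 of the 10 had a peak under RD, 8 under HFD and 9 under HFD-O304. The shares over all genes are for any annotated start, so they are not the background of these 5′-end counts. H3K27Me3 was present at 2 of 10 in each diet, those of Cdkn2a and Cdk6, against 7.57%, 9.43% and 10% of all genes. Presence of H3K27Ac differed between diets for 2 genes, Ccnd1 and Cdk6, and 10.2% of all genes had such a peak in 1 or 2 of the 3 diets. No promoter of the 10 differed between diets in presence of H3K27Me3, for which the background was 6.28%. Both marks were called at the promoter windows of Cdkn2a and Cdk6 under RD and HFD-O304 and of Cdkn2a alone under HFD, beside 2.22% of all genes under RD, 3.53% under HFD and 3.04% under HFD-O304. Apart from Cdkn2a, Cdk6 and Ccnd1, the other 7 genes carried H3K27Ac in all diets and H3K27Me3 in none, a combination held by 9368 genes (42.5%).

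**Figure D1:**
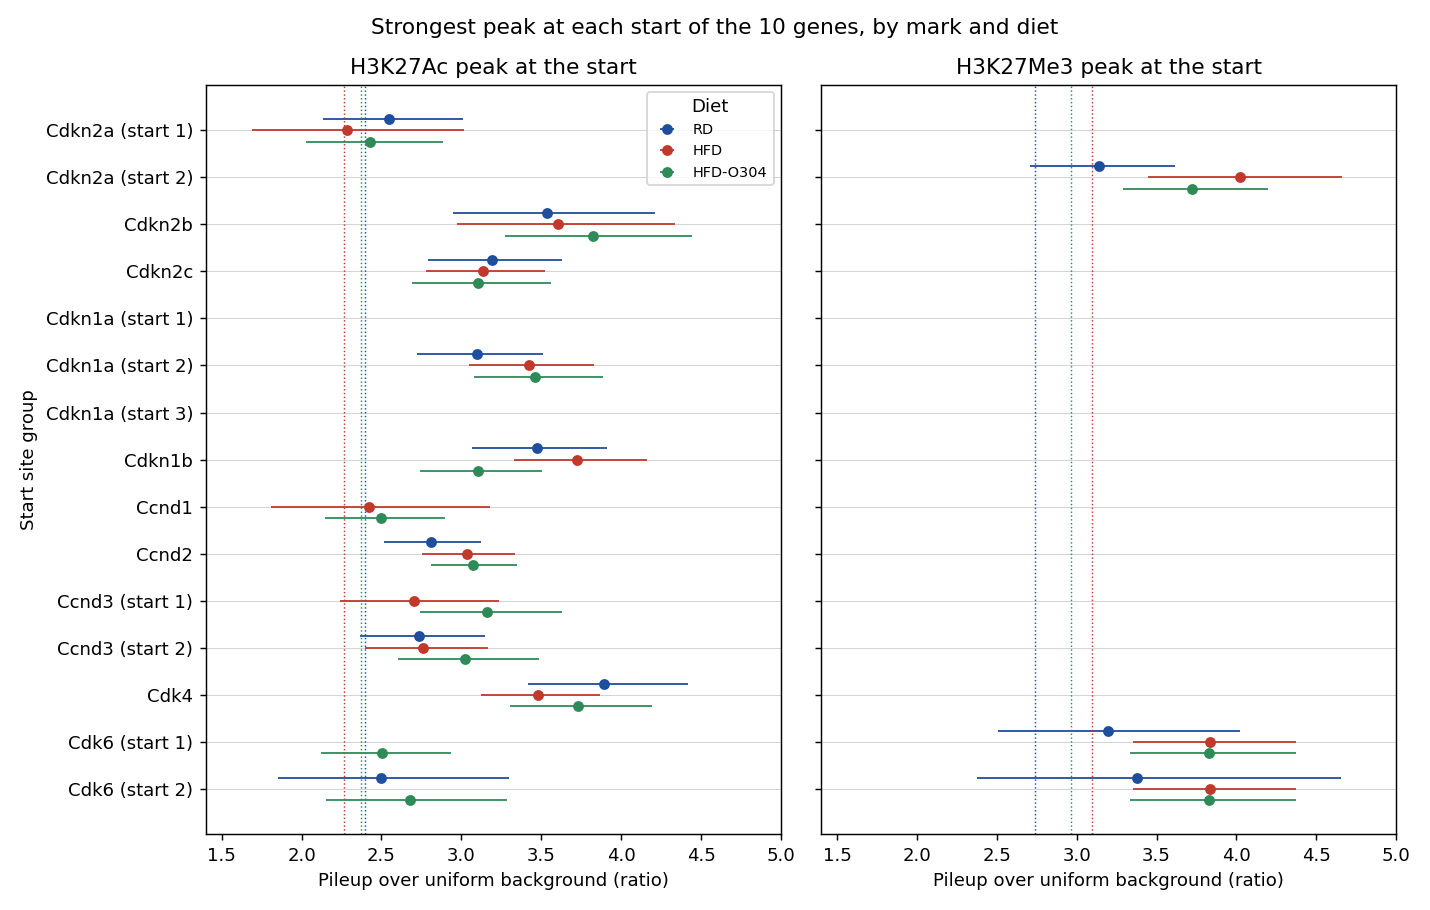
Strongest H3K27Ac (left) and H3K27Me3 (right) peak within 1000 bp of each group of start sites, as pileup over uniform background on a linear axis that begins above 0, for RD, HFD and HFD-O304. Points are values of 1 merged list, bars are 95% Poisson intervals, dotted lines are the lowest ratio in each list, and a missing point means that no peak was called; the H3K27Me3 panel holds points only for the second Cdkn2a start and both Cdk6 starts.

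Of the INK4 inhibitors, Cdkn2a (chr4:89274471-89294653) carried the marks at different starts. H3K27Ac lay at the CpG-rich p19Arf start in all 3 diets and was weak. Its ratio was 2.54 (2.13 to 3.01) over 1179 bp under RD, 2.28 (1.69 to 3.02) over 423 bp under HFD and 2.43 (2.03 to 2.89) over 1166 bp under HFD-O304. All 3 values were within the lowest 5.00% of the promoter peaks of their lists, and the intervals overlapped. At a common fold limit the HFD peak was lost, and with lists of equal size those of HFD and HFD-O304. No H3K27Ac was called at the p16Ink4a start, 12461 bp downstream. That start was instead covered by H3K27Me3, at 3.14 (2.71 to 3.62) over 1501 bp under RD, 4.02 (3.45 to 4.66) over 1506 bp under HFD and 3.72 (3.29 to 4.20) over 2328 bp under HFD-O304. The RD value was the lowest of the 3, with an interval that overlapped both others. Promoters called in both lists had a median log2 difference of 0.27 between HFD and RD (1404 promoters), and the difference of 0.36 at Cdkn2a lay at percentile 73.7 among them. The set of all 6 peaks was found at 262 genes (1.19%).

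H3K27Me3 was called at further sites of Cdkn2a, with 4 peaks at the locus under RD, 6 under HFD and 4 under HFD-O304, which covered 5360, 8838 and 8049 bp. The strongest H3K27Me3 peak at any of the 10 loci by −log10 q (16.57) lay in the intron before the p16Ink4a start. It spanned chr4:89284972-89285727 under HFD with a ratio of 6.40 (5.38 to 7.55), and was also called under RD at 4.46 (3.61 to 5.45) and under HFD-O304 at 4.39 (3.54 to 5.39). The HFD value was the highest, and its interval overlapped those of the other diets only at their ends. Repeats made up 38.4% of the HFD stretch, 51.3% of that under RD and 38.5% of that under HFD-O304. The 3′ end of the gene was covered by a single stretch of 4938 bp at 3.84 under HFD and of 4596 bp at 3.58 under HFD-O304, and by 2 peaks of 2044 and 1281 bp, at 3.02 and 3.16, under RD. Further peaks were called in 1 diet: in HFD at chr4:89289386-89290541 (3.22), chr4:89280005-89280262 (3.64) and chr4:89264763-89264986 (4.24; 79.9% repeat-masked), and in HFD-O304 at chr4:89288927-89289366 (3.17). All 4 intervals reached down to the lowest ratio in at least 1 list that lacked the peak.

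**Figure D2:**
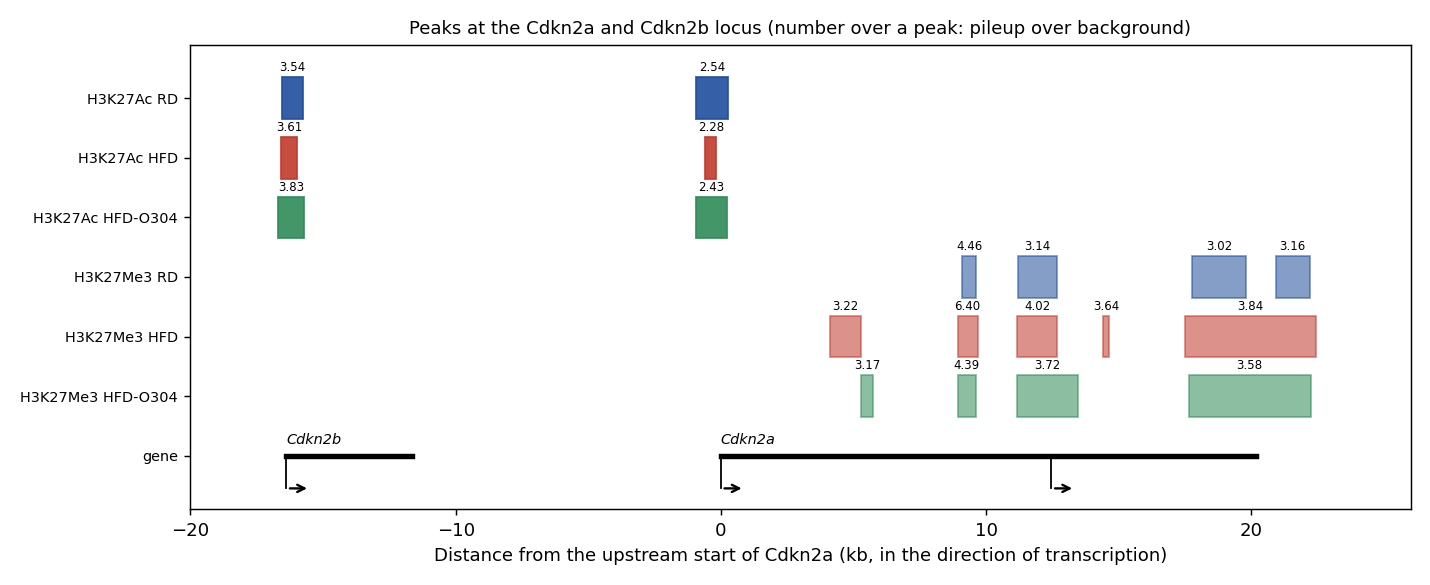
Peaks of both marks in RD, HFD and HFD-O304 over Cdkn2b and Cdkn2a, plotted by distance in kb from the p19Arf start, with arrows at start sites and the ratio over background above each peak. H3K27Ac sits at the starts of Cdkn2b and p19Arf in all diets, and H3K27Me3 only from the first intron of Cdkn2a to beyond its 3′ end.

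The neighbouring Cdkn2b (chr4:89306299-89311039), which encodes p15Ink4b, showed a compact H3K27Ac peak and no H3K27Me3 at its promoter. The ratio was 3.54 (2.95 to 4.21) under RD, 3.61 (2.97 to 4.34) under HFD and 3.83 (3.27 to 4.44) under HFD-O304, over 791, 611 and 989 bp. The 3 intervals overlapped widely, and each value was above that of p19Arf in the same diet. Cdkn2c (chr4:109660876-109667189), the gene of p18Ink4c, had ratios of 3.19 (2.79 to 3.63), 3.13 (2.78 to 3.52) and 3.10 (2.69 to 3.56) in RD, HFD and HFD-O304, the narrowest range of the genes with a peak in all 3 diets. No H3K27Me3 was found anywhere at its locus. A peak between genes beyond its 3′ end, at chr4:109656953-109657995, was called in all 3 diets, as was the promoter of its neighbour Faf1.

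Among the CIP/KIP inhibitors, the p21 gene Cdkn1a (chr17:29090976-29100727) was acetylated at a single group of starts. H3K27Ac was called at the second of 3 groups of start sites at 3.10 (2.72 to 3.51) under RD, 3.42 (3.05 to 3.83) under HFD and 3.46 (3.08 to 3.88) under HFD-O304, and at neither of the others in any diet. The RD value was the lowest, within overlapping intervals. A site beyond the 3′ end, chr17:29107928-29108316, held both marks in all 3 diets, with H3K27Ac at 3.88, 2.79 and 2.97 and H3K27Me3 at 4.83, 4.81 and 4.77 in RD, HFD and HFD-O304. This site was 100% repeat-masked, and the part of read mapping in it was not tested. At Cdkn1b (chr6:134920401-134925513), the p27 gene, H3K27Ac was 3.47 (3.07 to 3.91) under RD, 3.73 (3.33 to 4.16) under HFD and 3.11 (2.74 to 3.51) under HFD-O304. HFD-O304 was the lowest here, and its log2 difference to HFD of -0.26 lay at percentile 3.09 of 10933 promoters called in both lists, though the intervals overlapped. A second peak between genes, beyond the 3′ end at chr6:134926868-134928689, followed the same order, with 2.78 (2.42 to 3.17), 2.93 (2.59 to 3.30) and 2.60 (2.21 to 3.05). Cdkn1b had no H3K27Me3 at its locus.

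The D-type cyclins differed from each other in acetylation. At Ccnd1 (chr7:144929931-144939925) no H3K27Ac was called under RD, and peaks of 2.42 (1.81 to 3.18) over 423 bp under HFD and 2.50 (2.15 to 2.89) over 1578 bp under HFD-O304 lay just inside the gene. Presence in HFD and HFD-O304 with none in RD was found for 4.55% of all genes. Both intervals included 2.40, the lowest ratio in the RD list, so a difference was not detectable at this depth. With lists of equal size the Ccnd1 peaks of HFD and HFD-O304 were not retained, which left the promoter without H3K27Ac in any diet. In HFD alone a further peak lay upstream of the gene, at chr7:144941335-144942960 (2.36; 2.04 to 2.72). Ccnd2 (chr6:127125162-127152193) had the widest H3K27Ac domain of the 10 promoters in each diet. It covered 2719 bp under RD, 2769 bp under HFD and 3636 bp under HFD-O304, wider than 96.4%, 94.7% and 97.7% of all promoter peaks of those lists, and its ratios were 2.81 (2.52 to 3.12), 3.04 (2.75 to 3.34) and 3.07 (2.81 to 3.35). The domain began at the start sites and ran into the gene. In HFD-O304 alone an intronic H3K27Ac peak was called at chr6:127140541-127140979 (2.52; 1.87 to 3.32), and an H3K27Me3 peak before the promoter at chr6:127153280-127154272 (3.06; 2.47 to 3.75). Both intervals included the lowest ratios of the other diets.

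Ccnd3 (chr17:47505051-47599691) has start sites in 2 groups 88419 bp apart. The downstream group was acetylated in all diets, at 2.74 (2.36 to 3.15) under RD, 2.76 (2.40 to 3.17) under HFD and 3.02 (2.60 to 3.49) under HFD-O304. At the upstream group no peak was called under RD, with 2.70 (2.24 to 3.23) under HFD and 3.16 (2.74 to 3.63) under HFD-O304. The HFD-O304 interval lay above 2.40, the lowest ratio called in RD, and that of HFD included it. An intronic peak at chr17:47511392-47512429 was present in all diets, at 3.30 under RD, 3.64 under HFD and 2.87 under HFD-O304. Weak intronic H3K27Ac at chr17:47521562-47522156 (2.42; 1.90 to 3.05) was called in HFD alone, and a peak over an exon at chr17:47598782-47599733 (2.38; 1.94 to 2.88) in HFD-O304 alone. None of the 3 cyclin genes had H3K27Me3 at its promoter.

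**Figure D3:**
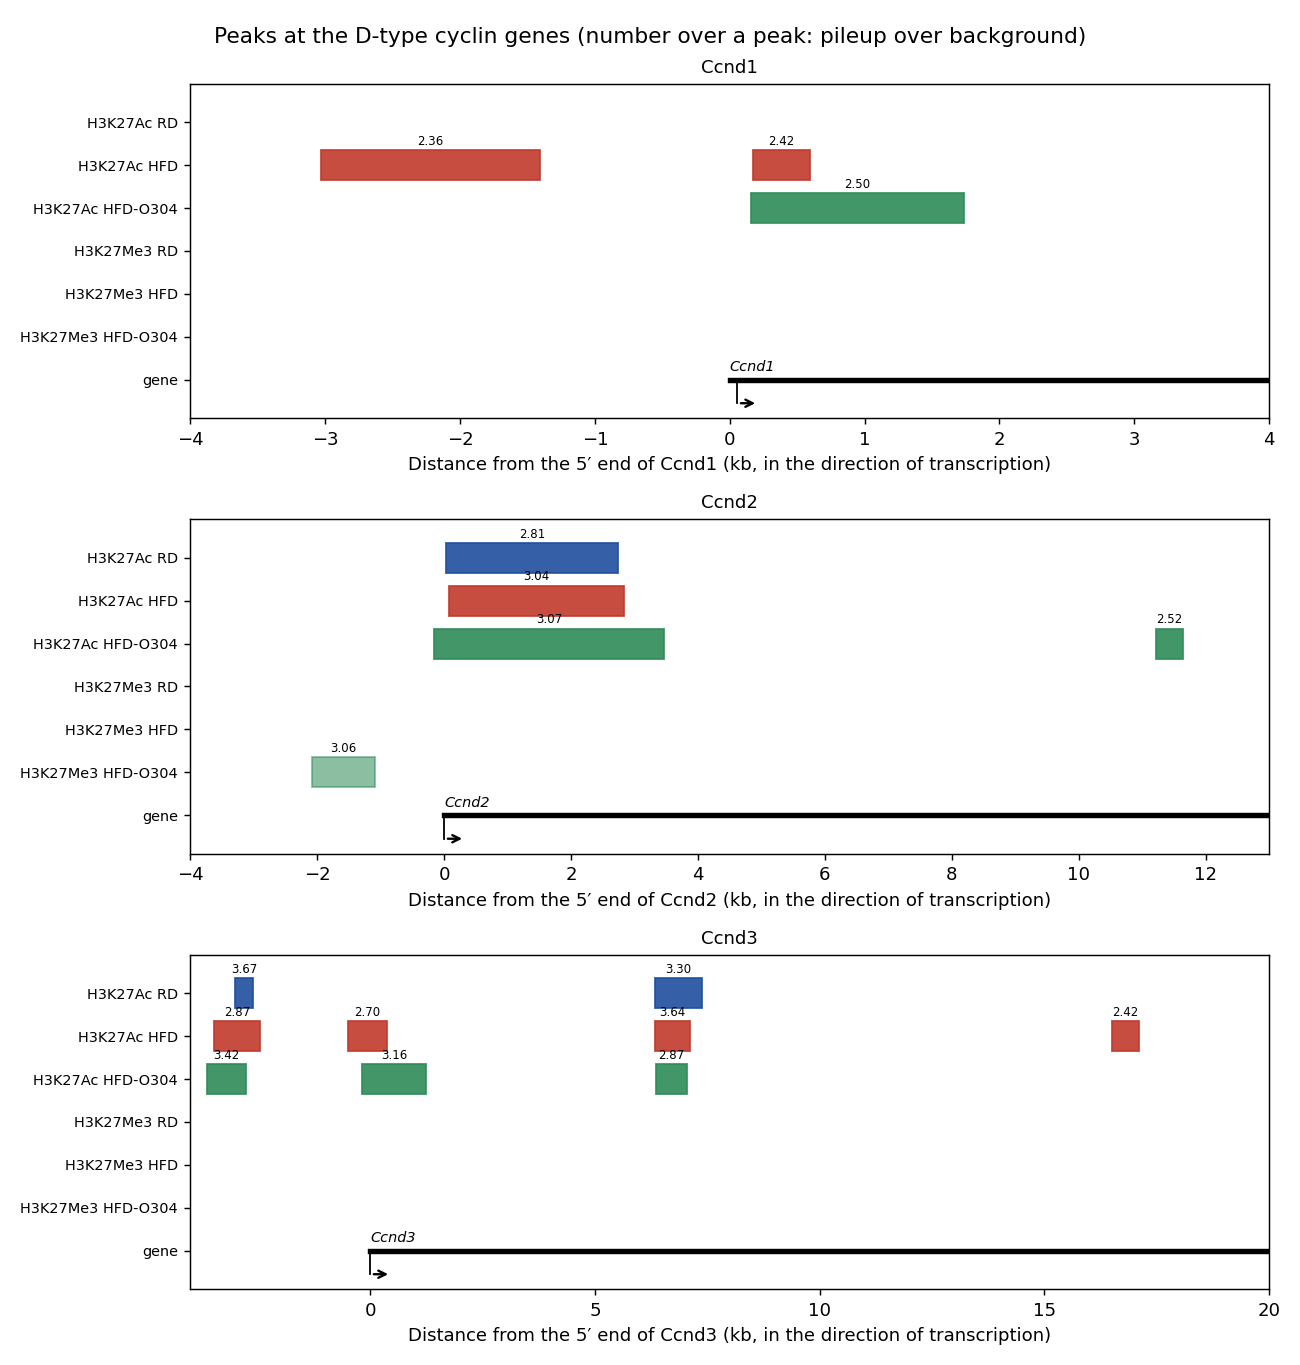
Peaks at Ccnd1, Ccnd2 and the upstream part of Ccnd3 by distance in kb from the 5′ end of each gene, in rows of mark and diet, with the ratio over background above each peak. RD has no peak at the Ccnd1 start or the upstream Ccnd3 start, and the Ccnd2 domain extends 2719 to 3636 bp in the 3 diets.

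The catalytic partners of these cyclins were marked in contrasting ways. Cdk4 (chr10:127063534-127067920) had an H3K27Ac ratio of 3.89 (3.42 to 4.42) under RD, 3.48 (3.12 to 3.87) under HFD and 3.73 (3.31 to 4.19) under HFD-O304, the highest of the 10 genes under RD. HFD was the lowest of the 3, with overlapping intervals, and no H3K27Me3 was called at the Cdk4 promoter. Its locus is dense in genes. The H3K27Ac peak with the highest −log10 q at the 10 loci belonged to the promoter of its neighbour March9 under HFD-O304 (18.56, ratio 4.60; 4.17 to 5.05), with 3.67 under HFD and 3.22 under RD. The Tspan31 promoter was acetylated in HFD-O304 alone, at chr10:127069676-127070224 (2.64; 2.04 to 3.36). At the Agap2 promoter H3K27Ac was present in all diets, overlapped by H3K27Me3 in RD (2.77; 2.06 to 3.66) and in HFD-O304 (3.28; 2.62 to 4.04).

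Cdk6 (chr5:3341485-3531008) carried H3K27Me3 at its promoter in all diets, and H3K27Ac in RD and HFD-O304 but not in HFD. The combination of its 6 lists was shared by 10 genes (0.0454%), itself included, and acetylation in RD and HFD-O304 with none in HFD was found for 0.499% of all genes. At the first start H3K27Me3 was 3.20 (2.51 to 4.02) over 569 bp under RD, 3.84 (3.35 to 4.37) over 2024 bp under HFD and 3.83 (3.33 to 4.37) over 1835 bp under HFD-O304. RD had a separate peak of 274 bp (3.38; 2.38 to 4.65) further downstream, within 1000 bp of the second start group only. The HFD and HFD-O304 peaks also reached that window, so H3K27Me3 was called at both starts in all diets. H3K27Ac overlapped the H3K27Me3 of the first start in HFD-O304 alone, at chr5:3341308-3342640 (2.50; 2.12 to 2.94). At the second start, 2247 bp downstream, H3K27Ac was called at chr5:3344212-3344654 in RD (2.50; 1.85 to 3.30) and at chr5:3343850-3344602 in HFD-O304 (2.68; 2.15 to 3.28). In HFD no H3K27Ac was called there, and a further H3K27Me3 peak lay where the other diets had H3K27Ac, at chr5:3344311-3344645 (3.31; 2.27 to 4.68). Each of these intervals included the lowest ratio in a list that lacked the peak, so the difference in marks was not detectable beyond counting error, and merged lists do not show whether it occurred in both replicates.

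Within an intron of Cdk6 both marks overlapped in every diet at chr5:3435871-3438436. H3K27Ac was 2.48, 2.57 and 2.63 there in RD, HFD and HFD-O304, and H3K27Me3 3.18, 3.63 and 3.58. Repeats made up 85.3% of this stretch, and their part in the overlap was not tested. A neighbouring intronic peak of H3K27Ac alone, at chr5:3432420-3434032, was also called in all diets (2.61, 2.58 and 2.58) and was 5.83% repeat-masked.

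**Figure D4:**
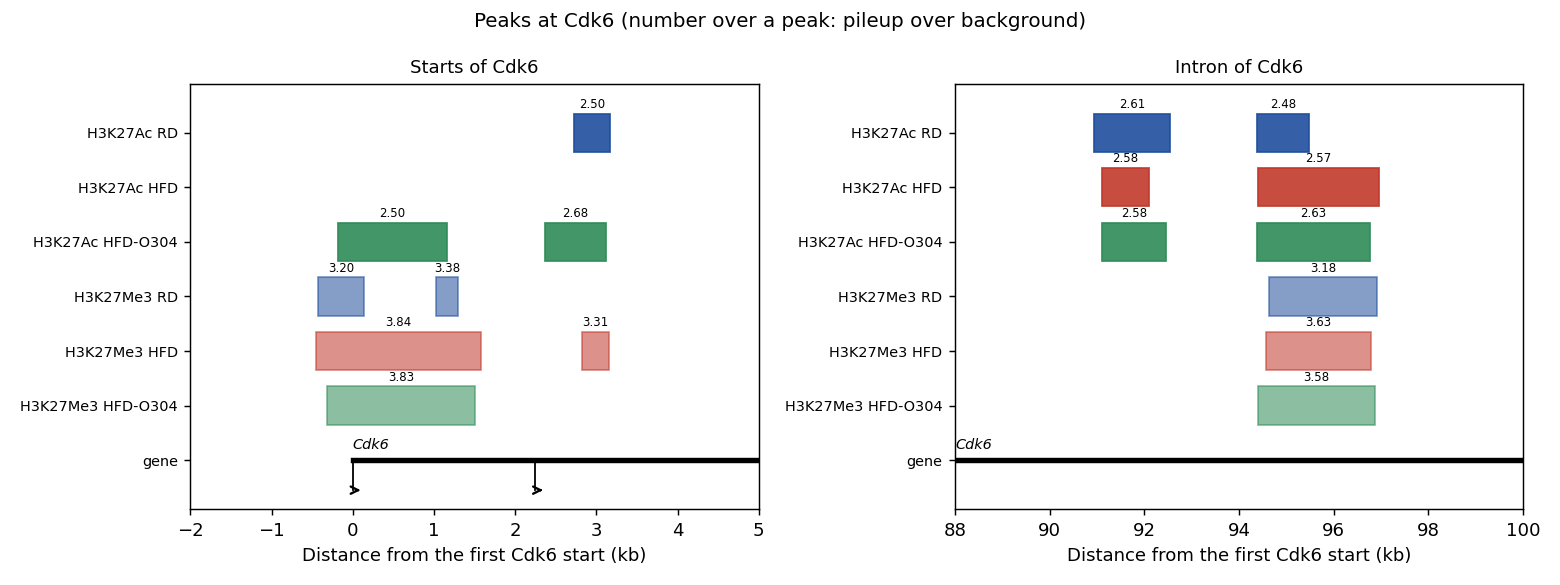
Peaks at the starts of Cdk6 (left) and in an intron (right) by distance in kb from the first start, in rows of mark and diet, with arrows at the start groups and the ratio over background above each peak. HFD has no H3K27Ac at the starts and holds H3K27Me3 near 3 kb, where RD and HFD-O304 hold H3K27Ac; in the intron both marks overlap in all diets.

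Over the 10 loci together, with the shared peaks of Cdkn2a and Cdkn2b counted once, H3K27Ac was called at 25 peaks under RD, 28 under HFD and 31 under HFD-O304, covering 27294, 33745 and 38757 bp. The whole lists also differed in size, with 16314, 21674 and 20305 peaks, and with lists of equal size the loci held 25, 23 and 25 H3K27Ac peaks over 27294, 29893 and 32340 bp. H3K27Me3 had 9, 10 and 9 peaks over 9317, 13779 and 14543 bp, from whole lists of 15517, 15438 and 22049 peaks. With lists of equal size it had 9, 10 and 7 peaks over 9317, 13779 and 13110 bp. H3K27Me3 peaks were also wider in HFD and HFD-O304 over all genes, with median promoter widths of 784, 1181.5 and 1075 bp in RD, HFD and HFD-O304. Joined over the diets, the H3K27Ac peaks made 33 regions, of which 24 (72.7%) were present in all 3 diets, against 50.5% of all such regions in the genome. For H3K27Me3 it was 6 of 13 (46.2%) against 34.5%. At a promoter, of these genes or of neighbours, lay 21 of the 33 and 4 of the 13 regions. The genome shares cover promoter and other regions alike, so they are not a matched background for these loci. No region was present in RD alone for either mark. This count is over few regions and was not set beside a share over all regions, so it is not read as a trait of these loci. The median log2 difference in H3K27Ac was 0.02 between HFD and RD over 8 genes, against 0.07 over 10097 promoters, 0.10 between HFD-O304 and RD over 9 genes against 0.08 over 10041, and 0.04 between HFD-O304 and HFD over 9 genes against 0.02 over 10933. Each difference is between the promoter peaks of highest −log10 q in the lists, which need not lie at the same start. For Ccnd3 that peak was at the upstream starts under HFD-O304 and at the downstream starts under RD and HFD.

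Other genes of the same pathway, 31 in a list by role chosen with earlier results of these data known, were read in the same way. H3K27Ac was called at the promoters of 18 under RD, 25 under HFD and 23 under HFD-O304, where the shares over all genes were 46.7%, 52.6% and 52%. H3K27Me3 was called at 2 of the 31 in each diet, beside 7.57%, 9.43% and 10% of all genes. Presence of H3K27Ac differed between diets for 7 of them, beside the 10.2% of all genes, and in all 7 the peak was missing in RD. Absence in RD was common over all genes as well. Of the 2256 genes with a peak in 1 or 2 diets, 1002 had it in HFD and HFD-O304 but not RD, and 486 in HFD alone. RD had the shortest H3K27Ac list, with 16314 peaks against 21674 under HFD and 20305 under HFD-O304. The part of list size in this pattern was not tested. In 5 of the 7 the peak was present in both HFD and HFD-O304, as for 4.55% of all genes. The Polycomb gene Bmi1, a repressor of Cdkn2a, had ratios of 3.10 (2.70 to 3.54) under HFD and 3.44 (2.99 to 3.95) under HFD-O304, both above the lowest ratio under RD. Mcm2, a subunit of the replicative helicase, had 2.74 (2.18 to 3.41) and 3.12 (2.31 to 4.11), and Mki67, the proliferation antigen Ki-67, 2.44 (1.84 to 3.17) and 2.54 (1.79 to 3.49). The other two were the p57 inhibitor gene Cdkn1c, with 2.45 (1.93 to 3.06) and 2.44 (2.00 to 2.95), and Mycn, a transcription factor of the MYC family, with 2.41 (1.77 to 3.21) and 2.50 (1.81 to 3.37). Their intervals, unlike those of Bmi1, included 2.40.

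The cyclin A gene Ccna2 and E2f2 had a peak in HFD alone, at 2.51 (2.10 to 2.99) and 2.52 (1.83 to 3.38), a pattern of 2.21% of all genes. Both intervals included 2.40 and 2.37, the lowest ratios under RD and HFD-O304. Cdkn1c and Mycn were also those with H3K27Me3. At Cdkn1c it was 2.85 (2.37 to 3.40) under RD, 3.59 (3.09 to 4.14) under HFD and 3.66 (3.08 to 4.32) under HFD-O304, and at Mycn 2.96 (2.50 to 3.48), 4.03 (3.52 to 4.59) and 3.48 (3.04 to 3.97). RD was lowest at both, as at Cdkn2a and Cdk6. The same order held for most promoters with H3K27Me3 in both lists. Their median log2 difference was 0.27 between HFD and RD (5th percentile 0.03) and 0.21 between HFD-O304 and RD (5th percentile -0.03). The RD list was the deepest of that mark and also had the lowest calling limit, and their part in this order was not tested. Of the pocket protein and E2F genes 6, 7 and 6 of 7 were acetylated in RD, HFD and HFD-O304, of the other CDK inhibitors 1, 2 and 2 of 2, and of the later cyclins 2, 3 and 2 of 5. The mitotic genes Ccnb1, Ccnb2, Cdk1 and Top2a, as well as Men1 and Skp2, had no promoter peak of either mark in any diet.

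**Figure D5:**
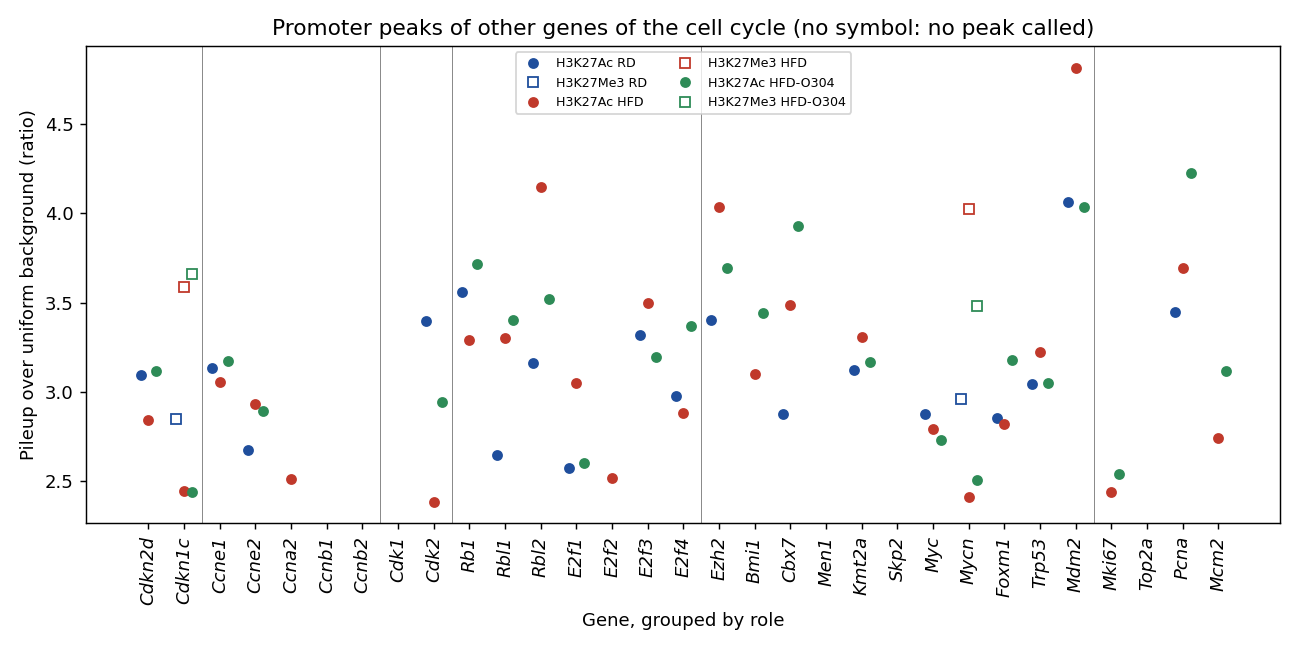
Promoter peaks of 31 other cell cycle genes, grouped by role along the x axis, with the pileup over uniform background on the y axis (linear, not from 0) for RD, HFD and HFD-O304. Filled circles are H3K27Ac and open squares H3K27Me3; 7 genes, among them Bmi1 and Mcm2, have H3K27Ac in HFD and none in RD.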

How the data were processed

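Chromatin immunoprecipitation with sequencing was performed by the authors on pooled, hand-picked islets (12 ChIP samples, 2 per mark and diet, grouped by their titles; 3 inputs, not analysed here). The authors mapped paired reads to GRCm38 with bowtie2, merged the replicates and ran MACS 2.1.2 in its broad mode. Per the file headers, the q limit was 0.01, the genome size 1.87e+09 and no control was used (the option string in the study's methods names a looser q value than the false discovery rate stated there). The deposited pileup is the mean coverage of a peak (fragments per base). MACS set the deposited −log10 q against a uniform background, and the deposited fold is a ratio, (pileup + 1) over (background + 1). The authors' peak length is in bp and depends on the calling limit. Duplicates, removed in calling, were 17.2% to 18.4% of H3K27Ac fragments and 45.7% to 56.9% of H3K27Me3 fragments.

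Peaks were assigned by at least 1 bp of overlap to windows of 1000 bp either side of starts of protein-coding transcripts (GENCODE vM21) or to gene bodies with 20 kb flanks, using Python 3.11.15, pandas 2.3.3, scipy 1.17.1 and pysam 0.24.0. A uniform background was computed as kept fragments times fragment size over genome size. Ratios depend on the called extent of a peak. The overlap code was tested on simulated data. The genes and lists were chosen with earlier results of these data known. All 10 genes were named, with pathway genes that had H3K27Me3 or whose H3K27Ac presence differed between diets; those without any peak were named after their values were seen. Alternatives changed the q limit, fold limit, list size, repeats, windows, flanks, starts, overlap and ratio.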

Additional observations from a re-analysis of the deposited data

How the results depend on the processing

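No paired analysis was possible because each list pools both replicates of its group, and a fit without 1 replicate could not be made either. Of 184 alternative values of the counts, covered bases and medians, 164 stayed within 1.5 times or the counting interval, some of which could not move by construction. The ratio of a promoter that keeps its peak cannot change under a filter, so those values say nothing of stability. A minimum −log10 q of 5 changed most. It left H3K27Ac at 5, 6 and 7 of 10 promoters, and 13, 14 and 17 H3K27Ac peaks over 12606, 19354 and 24083 bp at the loci in RD, HFD and HFD-O304. For H3K27Me3 it left 0, 1 and 1 promoters and 2, 4 and 3 peaks over 913, 2859 and 2863 bp. The peaks lost included those of p19Arf, Ccnd1 and Cdk6 in every diet where H3K27Ac had been called. Lists of equal size removed Ccnd1 in HFD and HFD-O304 and Cdkn2a in the same diets, and a common fold limit removed Cdkn2a H3K27Ac in HFD. Without repeat-rich peaks H3K27Me3 covered 6115 bp in RD. With only the 5′ end of each gene as its start, H3K27Me3 was at 1 promoter in each diet (1 under RD, 1 under HFD and 1 under HFD-O304), since the p16Ink4a start was then left out, and H3K27Ac at 6, 8 and 9 promoters. No share of all genes under the same setting was set beside the promoter counts of these alternatives.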
